A study of Mus musculus with 4 samples.

Results

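Igha (ENSMUSG00000095079), the constant-region gene of the IgA heavy chain, and Jchain (ENSMUSG00000067149), the gene of the joining chain, were followed through single immune cells of the mouse Peyer's patch. Both were chosen by name, 2 of the 31053 genes in each count matrix, and described by the clusters of the deposited B-lineage cell table and by group. The cells were CD45+ (white blood) cells sorted from the Peyer's patches of the small intestine of wild-type female Taconic mice. The SFB-positive group carried segmented filamentous bacteria (SFB), which live bound to cells lining the ileum and are known to raise intestinal IgA, and the SFB-negative group did not. Cells of 5 mice were pooled per group and each group has 2 libraries. Nothing in the labels says that the libraries of a group came from separate pools, so p-values measure the spread between libraries, which may be technical. The series title names IgA class switching as a subject, and the comparisons below ask where IgA and J chain transcripts lay and how they differed between the groups.

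IgA is the main antibody of mucosal secretions. A B cell reaches it by class switching, in which DNA recombination joins its rearranged variable region to Igha in place of Ighm, a step directed to Igha by TGF-beta signals. Plasma cells then link IgA monomers through the J chain into dimers, which the polymeric immunoglobulin receptor (Pigr) carries across the epithelium. The J chain also closes IgM pentamers, and Jchain can be transcribed in B cells of any antibody class.

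The GENCODE vM21 annotation of mouse build GRCm38 places Igha on the minus strand of chromosome 12, from 113254830 to 113260236, with 2 annotated transcripts that differ in their last coding exon. Jchain lies on the minus strand of chromosome 5, from 88519809 to 88527891. The last 63 coding bases, stop codon included, are shown for each, since the tail of secreted IgA is where the J chain bonds to it and the membrane form lacks that tail. Capitals mark each in-frame cysteine codon. The secreted Igha transcript (chr12:113258768-113258830, minus strand, in exon 3) ends in a cysteine codon, a tyrosine codon and the stop, and this tail cysteine is the residue known to bond to the J chain.

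Igha secreted form: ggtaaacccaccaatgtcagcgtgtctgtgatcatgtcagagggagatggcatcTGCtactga
Igha membrane form: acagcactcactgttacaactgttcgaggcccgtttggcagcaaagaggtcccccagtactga
Jchain: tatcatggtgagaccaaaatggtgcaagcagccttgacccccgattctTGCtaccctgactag

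The membrane form (chr12:113256201-113256263, minus strand, exon 4) has 0 cysteine codons in this stretch. The Jchain stretch (chr5:88521313-88521375, minus strand, exon 4) has 1, and its whole coding sequence of 159 sense codons has 8. The cysteines through which the J chain is known to bond to heavy chains lie further upstream in it. The matrices count molecules per gene, so the Igha values below add the secreted and membrane forms, which cannot be told apart in them.

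Depth differed by replicate number. The replicate 1 libraries held 7198366 (SFB-negative) and 6979187 (SFB-positive) unique molecular identifiers (UMIs, 1 per captured RNA molecule), and the replicate 2 libraries held 47273320 and 83600989. The file headers also name a different Cell Ranger release for each replicate number, and only the replicate 1 libraries carry antibody tags, so the number marks a technical batch. Values are therefore given for each library and within each replicate number. Libraries with the same number shared 30 and 40 cell barcodes, and libraries with different numbers shared 0 or 1. The labels name a single 3′ kit for all samples, but the barcodes of the replicate 1 libraries look drawn from another list than those of replicate 2, so whether all 4 libraries read the same end of the transcript was not settled here. Levels are therefore best compared within a replicate number. The cell table holds 4050 and 7731 cells of SFB-negative replicates 1 and 2 and 3408 and 7380 cells of SFB-positive replicates 1 and 2. Its cells held at most 2980 and 3999 genes in the SFB-negative and 2993 and 5991 genes in the SFB-positive libraries. Cells with more genes may thus be missing from the table, from a different number upward in each replicate 2 library. The part of this in the group differences was not tested. Cluster 3 raised 10 of 11 germinal-centre markers over 2-fold against the other table cells and is called germinal-centre-like, and cluster 6 raised 12 of 12 plasma-cell markers and is called plasma-like. Cluster 4 mixed markers of memory cells (Cd80) and of marginal-zone or innate-like cells (Fcrl5, Cd9) among its 10 leading genes, so it and the other clusters are called by number. Igha and Jchain are themselves the 2 leading genes of cluster 6, so their high level there is a description with no test.

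The plasma-like cells held most of both transcripts. Igha stood at 192782 and 25959 counts per 1e6 UMIs (CPM) in SFB-negative replicates 1 and 2, and at 100294 and 33343 CPM in SFB-positive replicates 1 and 2. The groups overlapped, and the 4 libraries hold only 6, 30, 24 and 68 plasma-like cells. Jchain stood at 62704 and 20802 CPM in the SFB-negative libraries and at 50885 and 29640 CPM in the SFB-positive libraries, again overlapping. Of all Igha UMIs in table cells, cluster 6 held 91.7%, 88.3%, 92.7% and 79.3% in the same order, with at most 0.921% of the table cells. The Jchain share in cluster 6 was lower in SFB-negative replicates 1 and 2 (70.0% and 66.3%) than in SFB-positive replicates 1 and 2 (82.6% and 83.4%), and those 4 shares did not overlap between groups. The number of plasma-like cells and the RNA in each both enter these shares.

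**Figure D1:**
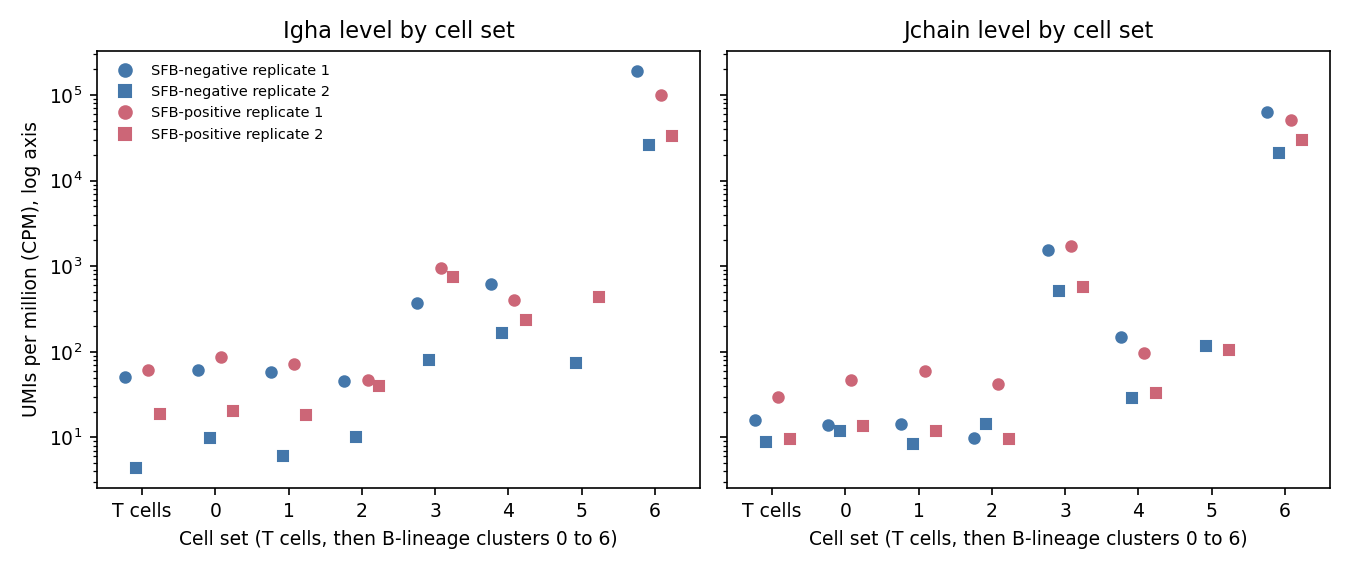
Igha (left) and Jchain (right) in CPM, on a log axis, for T cells and B-lineage clusters 0 to 6. Each point is 1 library with at least 5 cells in that set, coloured by SFB group and shaped by replicate number. Both genes peak in cluster 6. In cluster 3 the SFB-positive Igha points lie above the SFB-negative ones, while the Jchain points pair by replicate number.

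Clusters 0, 1 and 2, which hold most of the table, lay near the level of free RNA. T cells, which make no antibody, gave the level of RNA that leaked from other cells (223 and 732 cells in SFB-negative replicates 1 and 2, and 245 and 971 in SFB-positive replicates 1 and 2). They held Igha at 50.8 and 4.39 CPM in SFB-negative replicates 1 and 2 and at 61.9 and 18.6 CPM in SFB-positive replicates 1 and 2. Clusters 0 to 2 together held 58.0 and 8.65 CPM against 74.8 and 23.0 CPM, within 0.752 to 2.28 times the T-cell level when each cluster was taken alone. Jchain behaved likewise, at 13.4 and 11.1 CPM against 50.6 and 12.1 CPM in clusters 0 to 2 and at 16.0 and 8.78 CPM against 29.6 and 9.69 CPM in T cells. Igha UMIs were found in 7.61%, 2.17%, 10.1% and 11.1% of the cells of clusters 0 to 2 and in 8.07%, 1.64%, 8.98% and 11.6% of T cells, at median depths of 1233 to 5420 and 1416 to 6499 UMIs per cell. Shares at this level are read as background.

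Jchain stood far above the background in germinal-centre-like cells of every library. It was found in 87.8% and 79.8% of cluster 3 cells in SFB-negative replicates 1 and 2 and in 86.7% and 89.8% in SFB-positive replicates 1 and 2. Its level was 1530 and 517 CPM against 1709 and 570 CPM, between 57.8 and 95.4 times that in T cells. The libraries pair by replicate number rather than by group. After each cell was thinned at random to 1000 UMIs, the share was 70.1% and 34.9% against 68.5% and 32.9%. Within replicates 1 and 2 the SFB-positive library was lower by 1.57 and 2.02 percentage points. The group means were 52.5% ± 24.9 (SD, n = 2) in SFB-negative and 50.7% ± 25.2 (SD, n = 2) in SFB-positive libraries (exact permutation test, two-sided, p = 0.667, where 2 libraries against 2 cannot go below 0.333). Most of that SD lies between the replicate numbers.

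Igha in the same germinal-centre-like cells was higher with SFB within both replicate numbers. Its level was 376 and 79.5 CPM in SFB-negative replicates 1 and 2 and at 946 and 744 CPM in SFB-positive replicates 1 and 2, which is 7.40 and 18.1 times the T-cell level against 15.3 and 39.9 times. The groups did not overlap. At 1000 UMIs per cell Igha was found in 19.05% and 5.01% of cells against 35% and 34.5%, a mean of 12.03% ± 9.93 against 34.7% ± 0.383 (SD, n = 2 each; exact permutation p = 0.333). Without thinning the shares were 31.8% and 15.3% against 53.7% and 71.7%. T cells thinned the same way gave 4.72% and 0.413% against 6.33% and 1.55%, so the background moved in the same direction, by 1.22-fold in CPM within replicate 1 and 4.25-fold within replicate 2. Its part in the cluster 3 difference was not tested. The summed level of 12 plasma-cell markers, neither member among them, was 1499 and 1252 CPM in SFB-negative and 1577 and 1084 CPM in SFB-positive cluster 3 cells. That of 6 epithelial markers was 8.80 and 14.4 against 106 and 6.55 CPM.

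Among the 8 heavy-chain constant genes, Igha's share in cluster 3 followed the same order. Igha gave 10.2% and 8.16% of constant-region UMIs in SFB-negative replicates 1 and 2 and 20.8% and 38.2% in SFB-positive replicates 1 and 2. Cells in which Igha held over 50% of at least 3 constant UMIs (Igha-dominant cells) made up 10.5% and 5.95% of cluster 3 cells with that many UMIs against 32.1% and 46.2%. Ighg1, the IgG1 constant gene, held 31.8% and 46.7% of constant UMIs against 15.3% and 3.75%. Ighg2b, the IgG2b constant gene, held 7.94% and 4.64% against 34.0% and 19.6%. In SFB-positive replicate 1 a single cell held 525 of the 657 Ighg1 UMIs and another 764 of the 1460 Ighg2b UMIs, and without these cells the shares were 3.55% and 19.8%. Without the cell of most Igha UMIs, the Igha share was 8.76% and 6.68% against 20.1% and 33.6%. These shares sum to a whole, so a rise in one lowers the others.

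Cluster 4 held Igha without much Jchain. Its Igha level was 613 and 164 CPM in SFB-negative replicates 1 and 2 and 406 and 234 CPM in SFB-positive replicates 1 and 2, between 6.56 and 37.4 times the T-cell level. Jchain there was 148 and 29.2 CPM against 96.2 and 33.0 CPM, between 3.25 and 9.22 times the T-cell level, and was found in 11.3%, 9.63%, 8.55% and 13.7% of cells. The groups overlapped for both genes. Igha gave 13.6% and 13.1% of the constant UMIs of cluster 4 in the SFB-negative libraries and 8.77% and 11.4% in the SFB-positive libraries. Cluster 5, whose leading genes include many histone genes, had 258 and 209 cells in the replicate 2 libraries and 1 and 0 in the replicate 1 libraries. In replicate 2 it held 73.3 (SFB-negative) and 437 (SFB-positive) CPM of Igha and 116 and 104 CPM of Jchain, with no replicate check.

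The order of levels within each library placed cluster 6 first for both genes. For Jchain, cluster 3 came second in all 4 libraries, and cluster 4 stood above clusters 0 to 2 in each. For Igha, cluster 4 lay above cluster 3 in both SFB-negative libraries and below it in both SFB-positive libraries. Clusters 0, 1 and 2 kept no single order across libraries for either gene. Igha was higher in cluster 0 than in cluster 1 in all 4 libraries, at levels near those of T cells.

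Both transcripts met in the same cell more often than independence gives across the table, and about as often within germinal-centre-like cells. Over all B-lineage cells 62, 142, 147 and 720 cells held both (SFB-negative replicates 1 and 2, then SFB-positive replicates 1 and 2), where independence within a library gives 19.9, 46.7, 59.2 and 275. Within cluster 3 the numbers were 40, 87, 102 and 554 against 41.3, 87.8, 94.5 and 534. They lay below independence in both SFB-negative libraries and above it in both SFB-positive libraries. Most cluster 3 cells held Jchain, so these numbers could exceed independence only a little. At 1000 UMIs per cell, 71.4%, 27.8%, 77.1% and 32.2% of cluster 3 cells with Igha also held Jchain, beside 69.7%, 35.3%, 63.8% and 33.3% of those without Igha. In cluster 4 the numbers of cells with both were 8, 20, 7 and 41 against 3.50, 10.9, 3.34 and 25.6 from independence. Independence is computed from each library's own shares and no p is given, since cells are not replicates. The counts of cells with both genes are without thinning, so depth per cell enters them. Those over all B-lineage cells also mix clusters of unlike levels.

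**Figure D2:**
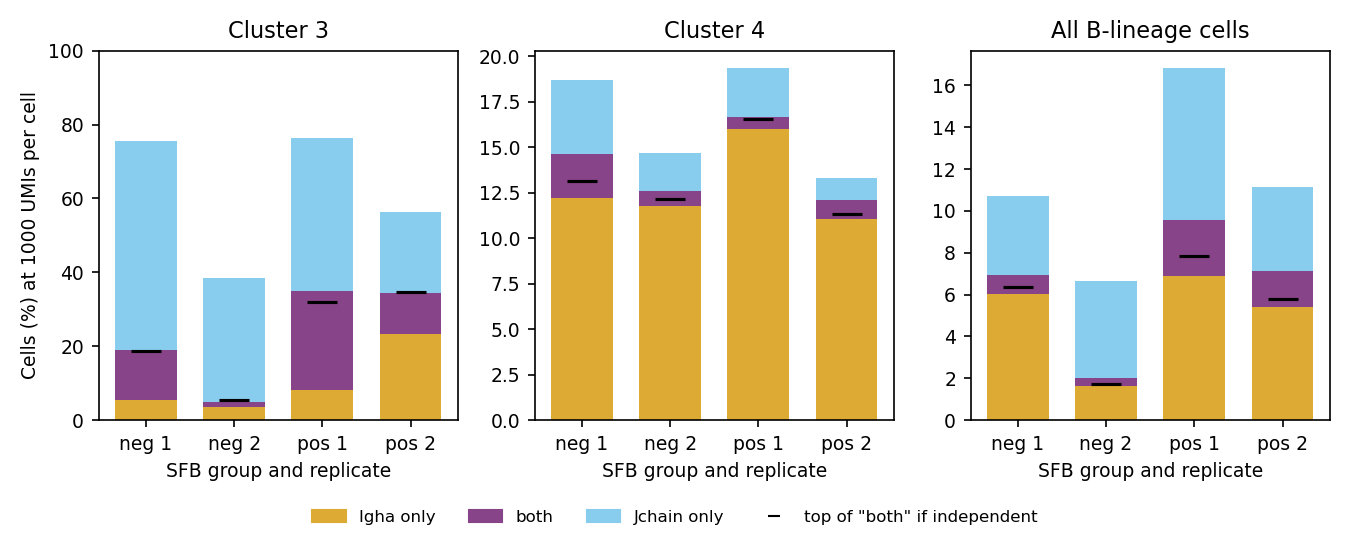
Share of cells with Igha alone, both genes or Jchain alone, in percent, after thinning each cell to 1000 UMIs, for cluster 3, cluster 4 and all B-lineage cells in each library (neg, SFB-negative; pos, SFB-positive). The axes differ between panels. The black tick marks where the purple segment would end if the 2 genes were independent: in cluster 3 it lies close to the segment's top, and in all B-lineage cells below it.

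Jchain was common in germinal-centre-like cells of the 4 antibody classes for which every library held 11 or more cells. In SFB-negative replicates 1 and 2 it was found in 80.9% and 71.8% of Ighm-dominant cells, and in SFB-positive replicates 1 and 2 in 61.2% and 70.3%. Igha-dominant cells held it in 80.0% and 71.4% against 95.1% and 96.0%. Ighg1-dominant cells held it in 96.8% and 85.4% against 100% and 95.6%. Ighg2b-dominant cells held it in 81.8% and 86.7% against 98.2% and 94.9%. The Igha-dominant cells numbered 15 and 35 against 61 and 375. Their place relative to Ighm-dominant cells depended on the gate. With at least 3 constant UMIs they were higher in 2 of 4 libraries, and in 3 of 4 at 1000 UMIs per cell (mean difference 9.95 ± 12.5 percentage points, SD, n = 4; exact sign-flip p = 0.25). With at least 10 they were higher in 4 of 4, at 88.9% and 91.7% against 97.5% and 97.0%, beside 81.0% and 80.3% against 56.1% and 71.3% of Ighm-dominant cells. The mean difference at 1000 UMIs per cell was then 18.4 ± 8.51 points (exact sign-flip p = 0.125). At the gate of 3 and 1000 UMIs per cell the Igha-dominant shares were 60.0% and 31.4% against 73.3% and 34.7%, a within-replicate difference between groups of 13.3 and 3.24 percentage points (exact permutation p = 0.667).

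Summed Jchain counts of Igha-dominant cells were 1.23, 1.08, 1.77 and 1.62 times those of Ighm-dominant cells on the CPM scale in the same libraries. The edgeR quasi-likelihood test on the summed counts, with library as a block, gave a log2 difference of 0.49 ± 0.10 (SE) and an adjusted p of 0.0037, higher in 4 of 4 libraries. In that comparison 1.48% of 4324 genes were called higher. This call was lost without SFB-positive replicate 2 (log2 difference 0.40, adjusted p = 0.298), the deepest library. There the richest Igha-dominant cell held 1043 Jchain UMIs (median 7) and the richest Ighm-dominant cell 159 (median 3). No fit of this comparison without these cells was run. The Ighg1-dominant cells (log2 1.00 ± 0.45, adjusted p = 0.493, 2.11% of genes called higher) and Ighg2b-dominant cells (0.71 ± 0.20, adjusted p = 0.138, 1.40% called higher) did not pass the edgeR test against Ighm-dominant cells. Both estimates exceeded the 0.49 of Igha-dominant cells, with larger SEs. On the CPM scale both classes lay above Ighm-dominant cells in 4 of 4 libraries. At the gate of 3 and 1000 UMIs per cell, Ighg1-dominant shares were higher in 4 of 4 (19.2 ± 9.60 points, SD, exact sign-flip p = 0.125). Ighg2b-dominant shares were higher in 3 of 4 (13.7 ± 18.4 points, exact sign-flip p = 0.25). The switched classes were not tested against each other.

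Jchain was also higher in Igha-dominant than in Ighm-dominant cells of most libraries in cluster 4 and in the plasma-like cells. In cluster 4 it was found in 42.9%, 16.7%, 66.7% and 29.9% of the 14, 48, 9 and 77 Igha-dominant cells, and in 4.26%, 7.11%, 3.31% and 8.24% of Ighm-dominant cells. Its background share in T cells was 2.69%, 3.01%, 4.49% and 6.39%. The ratio of Jchain CPM was 22.9, 0.889, 31.0 and 5.24 in the same order, above 1 in 3 of 4 libraries (exact sign-flip test, two-sided, p = 0.25). These ratios rest on few molecules. The richest Igha-dominant cell held 18, 1, 8 and 33 Jchain UMIs, beside medians of 0, 0, 1 and 0. At 1000 UMIs per cell Jchain was found in 21.4%, 4.17%, 11.1% and 5.19% of Igha-dominant cells. The shares of Ighm-dominant cells were then 2.13%, 2.67%, 1.68% and 1.14%. In cluster 6, Igha-dominant cells held Jchain at 83785, 31583, 61534 and 47500 CPM, and Ighm-dominant cells at 16465, 22205, 19191 and 19234 CPM. The ratio was above 1 in 4 of 4 libraries, with a mean log2 ratio of 1.46 ± 0.77 (SD, n = 4; exact sign-flip test, two-sided, p = 0.125, the smallest that 4 libraries allow). These sums rest on 2, 9, 11 and 19 Igha-dominant and 4, 11, 2 and 13 Ighm-dominant cells.

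**Figure D3:**
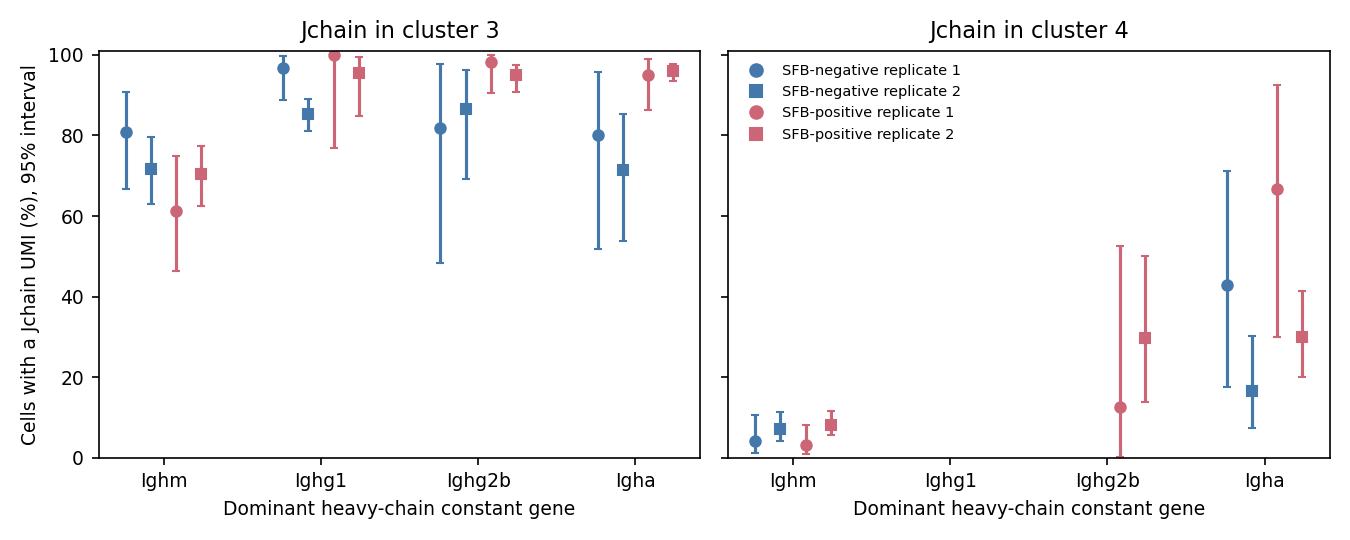
Share of cells with a Jchain UMI, in percent, by the heavy-chain constant gene that dominates the cell, in cluster 3 (left) and cluster 4 (right), for each library with at least 5 such cells. Bars are exact 95% binomial intervals, which cover counting error only. In cluster 3 all points lie above 60%, while in cluster 4 the Ighm points lie under 10% and the Igha points between 16.7% and 66.7%.

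Single cells carried very unequal amounts. The cell richest in Igha held 5427 of the 9096 Igha UMIs in table cells of SFB-negative replicate 1 and 2873 of 9380 in replicate 2. In the SFB-positive libraries the richest cell held 6111 of 19075 and 8447 of 65142. Cells with at least 50 Igha UMIs numbered 2, 8, 11 and 19 in cluster 6, and 2, 8, 11 and 18 of them also held at least 50 Jchain UMIs. In cluster 3 the replicate 1 libraries held 0 such Igha-rich cells. SFB-negative replicate 2 held 1, without 50 Jchain UMIs, and SFB-positive replicate 2 held 16, of which 2 also held at least 50 Jchain UMIs. Outside the table, SFB-positive replicate 2 held 39 such barcodes and the other libraries 1, 0 and 3 (SFB-negative replicates 1 and 2, SFB-positive replicate 1). Igha-dominant cells of cluster 3 carried a median of 9, 6, 10 and 17 Igha UMIs and 8, 3, 6 and 7 Jchain UMIs.

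Antibody tags in the replicate 1 libraries gave a protein readout for the same cells. At least 2 counts of the IgA tag were found on 10 of 15 Igha-dominant cluster 3 cells in SFB-negative replicate 1 (66.7%, exact 95% interval 38.4 to 88.2) and on 33 of 61 in SFB-positive replicate 1 (54.1%, 40.8 to 66.9). The Ighm-dominant cells of cluster 3 reached 12.8% (4.83 to 25.7) and 10.2% (3.40 to 22.2), and the Ighg1-dominant cells 9.68% and 0%. T cells, which lack surface IgA, stood at 9.87% and 6.94% with fewer tags per cell (median of all tags 10 and 6, beside 30 and 15 on the Igha-dominant cells). In cluster 4, 11 of 14 and 9 of 9 Igha-dominant cells carried the tag, and 6.38% and 11.6% of Ighm-dominant cells did. The IgG1 tag separated the other way, with 95.2% and 64.3% of Ighg1-dominant and 6.67% and 4.92% of Igha-dominant cluster 3 cells. In both libraries the interval of the IgA-tag share in Igha-dominant cluster 3 cells lay above that in Ighm-dominant and Ighg1-dominant cells. Against Ighg2b-dominant cells (18.2% of 11 and 14.3% of 56) it lay above in the SFB-positive library and overlapped in the SFB-negative library. The other class tags did not separate the classes in this way. The IgD tag was found on 66.7% and 62.3% of Igha-dominant and 76.6% and 65.3% of Ighm-dominant cluster 3 cells, and on 38.6% and 29.4% of T cells. The IgM tag was found on 10.6% and 4.08% of Ighm-dominant cluster 3 cells, beside 4.04% and 4.08% of T cells. With 1 tagged library per group no test between the groups was possible.

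**Figure D4:**
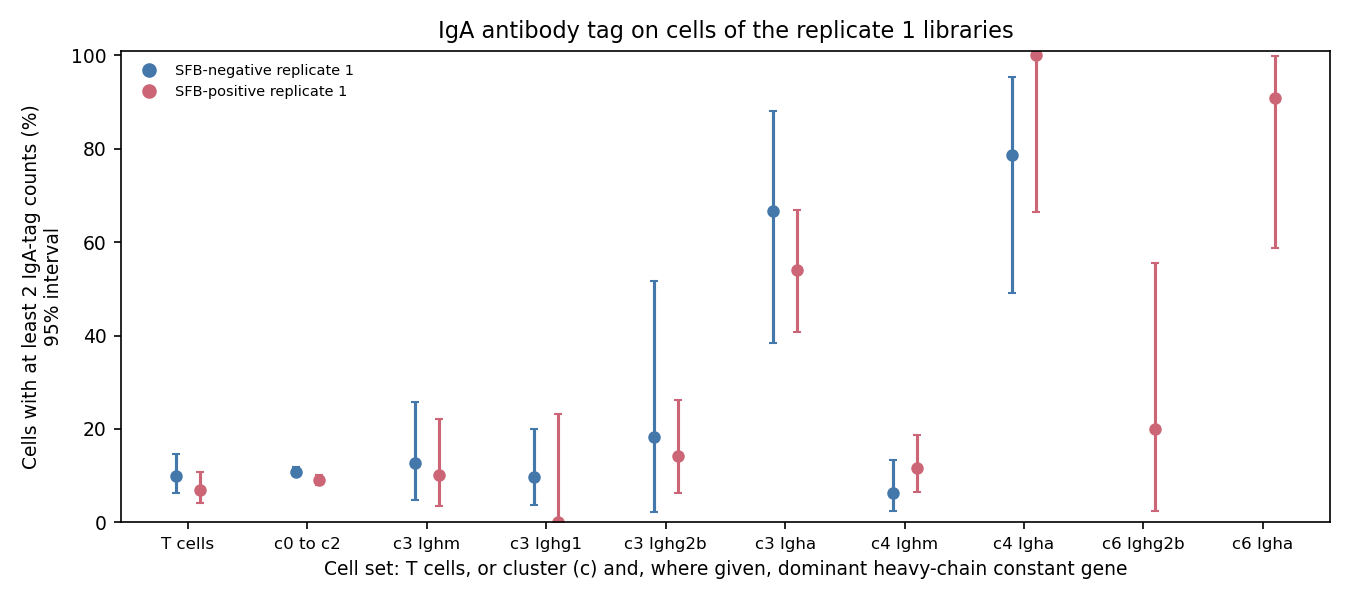
Share of cells with at least 2 counts of the IgA antibody tag, in percent with exact 95% binomial intervals, in the replicate 1 library of each group, for sets of at least 5 cells (c, cluster). Igha-dominant cells lie at 54.1% or above in each set, and every other set at 20% or below.

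Over all B-lineage cells, Igha and Jchain both rose with SFB in the edgeR model with the replicate number as a block, and neither passed in the model without it. Igha stood at 1435 and 291 CPM in SFB-negative replicates 1 and 2 and at 3201 and 1092 CPM in SFB-positive replicates 1 and 2, which overlap. Its log2 difference (SFB-positive minus SFB-negative) was 1.37 ± 0.38 (SE) with the block (adjusted p = 0.0145), beside 1.22 ± 1.12 without it (adjusted p = 1.00). Jchain stood at 611 and 310 CPM against 1821 and 923 CPM, with no overlap, and its log2 difference was 1.41 ± 0.35 with the block (adjusted p = 0.00354) and 1.47 ± 0.80 without it (adjusted p = 1.00). With the block, 0.929% of 12268 genes were called higher. Without it edgeR called 0% of genes, with 12 genes at an unadjusted p under 0.05, and DESeq2 called 0.0163% (2 genes), neither of them Igha or Jchain. In the other 6 cell sets the model without the block also called 0%, with 7 to 16 genes at an unadjusted p under 0.05. On simulated counts of all B-lineage cells and of cluster 3, built with a difference between replicate numbers, it recovered 0% of 200 changed genes. Not passing in it thus shows little. Without SFB-positive replicate 1 the Igha difference in the model without the block was -0.039. The block fits took the spread of most genes wholly from all genes together, except in cluster 1. The weight of that shared spread (median prior degrees of freedom) was infinite, beside 20.1 in cluster 1. SEs and adjusted p-values with the block thus leave out most genes' own spread between libraries.

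Outside the plasma-like cluster Igha still rose with the block, and Jchain did not pass. The Igha log2 difference was 1.71 ± 0.27 (adjusted p = 8.7e-08) with the block, where 0.877% of 12199 genes were called higher, and 1.43 ± 0.79 (adjusted p = 1.00) without it. The Jchain difference was 0.52 ± 0.27 (adjusted p = 0.453) with the block and 0.62 ± 0.74 (adjusted p = 1.00) without it. The plasma-like cells numbered 6 and 30 in the SFB-negative and 24 and 68 in the SFB-positive libraries, too few in SFB-negative replicate 1 for a test within the cluster. They made up 0.148% and 0.388% of the table cells in SFB-negative and 0.704% and 0.921% in SFB-positive replicates 1 and 2. Within cluster 6 the SFB-positive to SFB-negative CPM ratio was 0.812 and 1.42 for Jchain and 0.520 and 1.28 for Igha in replicates 1 and 2, beside 2.98 and 2.97 for Jchain and 2.23 and 3.76 for Igha over all B-lineage cells.

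In the germinal-centre-like cells Igha passed with the block and Jchain did not. Igha rose by a log2 difference of 2.20 ± 0.37 with the block (adjusted p = 1.5e-06), where 0.375% of 9876 genes were called higher, and stood at 1.85 ± 0.84 without it (adjusted p = 1.00). Within replicate 1 the CPM ratio was 2.52-fold and within replicate 2 it was 9.36-fold. The Jchain log2 difference was 0.05 ± 0.40 with the block (adjusted p = 0.993) and 0.13 ± 0.84 without it, with CPM ratios of 1.12-fold and 1.10-fold within the replicate numbers. The log2 ratio of Igha to Jchain UMIs was -2.03 and -2.70 in the SFB-negative and -0.85 and 0.38 in the SFB-positive libraries. The groups differed in it by 2.13 (exact permutation p = 0.333, the smallest possible). Leaving out the cell with the most Igha UMIs gave 2.29 with the block (adjusted p = 1.2e-07).

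In cluster 4 neither gene passed in either model. Igha differed by -0.16 ± 0.27 (adjusted p = 0.908) and Jchain by -0.33 ± 0.29 (adjusted p = 0.795) with the block, in which 0.282% of 8500 genes were called higher. The difference between the clusters was tested directly, in 1 edgeR model of both clusters with library as a block. The Igha effect of SFB was 2.31 ± 0.25 log2 units smaller in cluster 4 than in cluster 3 (adjusted p = 1.1e-13). When each library was left out in turn it lay between 2.09 and 2.49 units smaller. Those fits have 1 library in a group, whose spread is taken from the other group and from all genes, so they are given as values only. The fit of all libraries also leaves few degrees of freedom, so its SE and adjusted p lean on the spread of all genes together. The signed Jchain difference of effects was -0.28 ± 0.30 (adjusted p = 1.00). In that model 0.0311% of 9651 genes were called smaller in cluster 4 and as many larger. In clusters 0, 1 and 2 neither gene passed in either model, and 0.236%, 0.13% and 0.258% of genes were called higher with the block. With the block the Igha differences there were 0.62 ± 0.24, 0.84 ± 0.26 and 0.94 ± 0.30 (adjusted p = 0.249, 0.198 and 0.109), at levels near those of T cells. The Jchain differences were 0.65 ± 0.25, 1.01 ± 0.31 and 0.10 ± 0.35 (adjusted p = 0.247, 0.196 and 0.992).

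**Figure D5:**
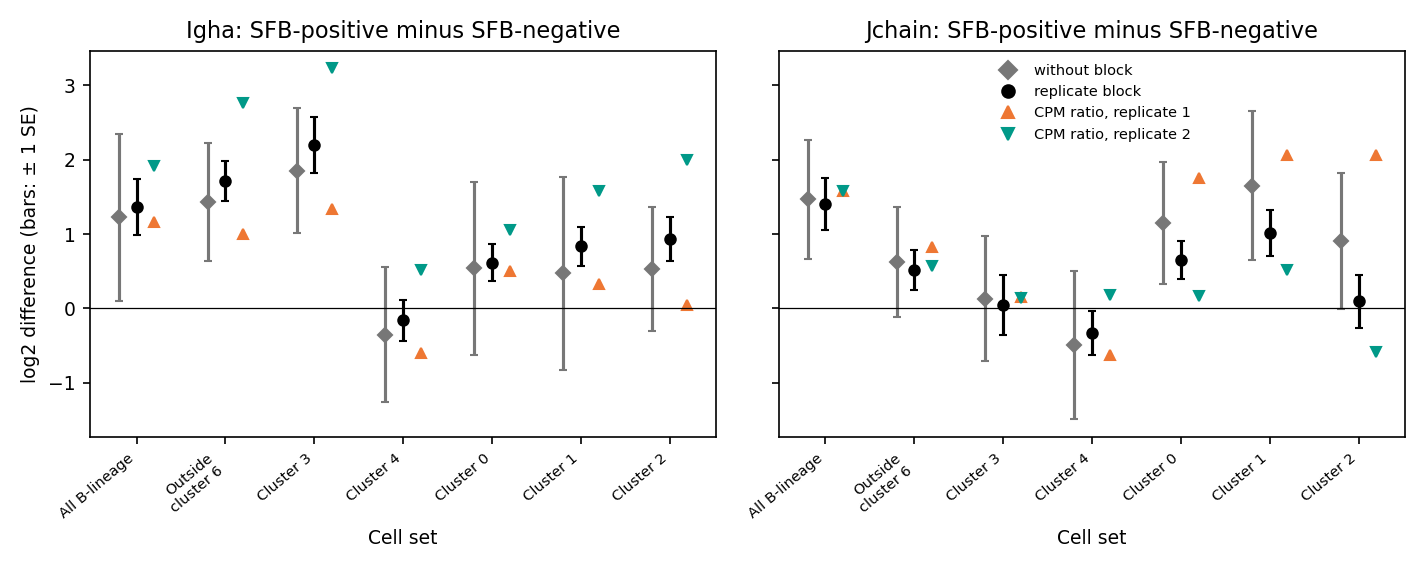
Log2 difference between SFB-positive and SFB-negative libraries for Igha (left) and Jchain (right) in 7 cell sets. Diamonds and circles are the edgeR estimates without and with the replicate block (bars, 1 SE), and triangles the log2 ratio of CPM within each replicate number. Igha in cluster 3 is above 1 within both numbers, and Jchain in cluster 3 is near 0 within both.

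Few of the listed genes around IgA and J chain passed the edgeR test, and few of all genes tested did. Of 22 genes for IgA switching, 21 were tested in cluster 3 and none passed in edgeR in either direction, with the block (4 at an unadjusted p under 0.05) or without it. The background with the block was 1.35% called in either direction. Their median log2 difference with the block was 0.33, beside 0.09 over all genes tested. Tgfbr1 and Tgfbr2, the TGF-beta receptors, differed by 0.27 ± 0.33 and 0.33 ± 0.32, and Runx3, a factor of the Igha germline promoter, by 0.51 ± 0.36 (adjusted p = 0.909, 0.858 and 0.741). Over all B-lineage cells 1 of 22 switching genes rose with the block, Runx2 (1.12 ± 0.31, adjusted p = 0.0158, 0.517 and 5.97 CPM against 2.72 and 11.2), which acts with Runx3 downstream of TGF-beta. Background there was 3.61% called in either direction.

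Of 20 plasma programme and secretion genes, 1 rose over all B-lineage cells with the block, Derl3 (0.71 ± 0.22, adjusted p = 0.0406), a factor of protein disposal from the endoplasmic reticulum. Of all genes tested there, 0.929% were called higher. Outside the plasma-like cluster 0 of the 19 list genes tested passed with the block. In cluster 3 none of the 18 tested passed (1 at an unadjusted p under 0.05), and Xbp1, the factor of the secretory programme, differed by -0.04 ± 0.29 (adjusted p = 0.993). Of 9 genes that regulate Jchain, 8 were tested in cluster 3 and none passed (1 at an unadjusted p under 0.05). Their median difference was 0.50, and Pax5, a repressor of Jchain, differed by 0.50 ± 0.34, Mef2b by 0.25 ± 0.32 and Prdm1 (Blimp-1), which represses Pax5, by 0.90 ± 0.59 (adjusted p = 0.720, 0.918 and 0.711). None of the 7 homing genes or 4 transport and receptor genes tested in cluster 3 passed (1 and 0 at an unadjusted p under 0.05), Pigr included at 4.39 CPM or below in each library. In cluster 3 only 1.35% of all genes were called in either direction with the block. Lists this short would seldom hold a called gene, so these counts show little about them.

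Across 25 sums of a library and a cluster, Igha and Jchain had a Spearman correlation of 0.90 and each ranked second for the other among 10441 genes. The nearest genes to Igha were Kcnn4, Cln6, Pqlc3, Ighg2b and Gstt2, and those near Jchain included Kcnn4, Dap, Ighg2b and Bpgm. Kcnn4, a calcium-activated potassium channel gene, was nearest to both (0.93 each). Sums of 1 library share its depth and free RNA. Without cluster 6 the correlation was 0.85 and Igha ranked 12th for Jchain and Jchain 20th for Igha.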

How the data were processed

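Single-cell RNA libraries of CD45+ Peyer's patch cells (10x Chromium 3′ kit per the labels) were deposited as filtered matrices of raw UMI counts per gene and barcode, made by the authors with Cell Ranger 5.0.1 on mm10 per the submitters' processing notes, while the file headers name releases 6.0.0 (replicate 1) and 7.0.0 (replicate 2). The authors' deposited cell table gives each B-lineage cell's cluster, the percent of UMIs from mitochondrial genes, and layout coordinates, an unscaled score that was not used. Clusters were taken as deposited and no doublet caller was run here. How the authors treated doublets is not given in the sources used here.

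Barcodes were matched to the table through its library code. CPM is UMIs of a gene over all gene UMIs of the cell set. T cells were barcodes outside the table with under 10% mitochondrial UMIs, at least 3 UMIs of T-cell receptor complex genes and 0 of 4 B-cell genes. Cells were thinned at random without replacement to 1000 UMIs, leaving out shallower cells (1, 0, 3 and 0 in cluster 3 of SFB-negative replicates 1 and 2 and SFB-positive replicates 1 and 2). A dominant constant gene held over 50% of at least 3 UMIs of the 8 heavy-chain constant genes. Counts summed per library and cell set were tested with edgeR 4.0.16 (R 4.3.3; TMM scaling, filterByExpr, quasi-likelihood test, Benjamini-Hochberg adjustment over all genes tested), without a block as the main model and with the replicate number as a block. Single values were compared by exact permutation over libraries. The scripts were tested on counts simulated from the real means of all B-lineage cells and of cluster 3, with 200 genes changed 4-fold. Simulated means were averaged over the libraries of each replicate number. Replicate number was thus the only difference built in besides the changed genes, which favours the block model. The simulated relative spread was the same for every gene. The model without the block recovered 0% of the changed genes, and the block model 99% to 100% with up to 9 false calls. These recoveries were largely set by that design and do not measure how either model does on the real counts. Not passing without the block is still no sign that a gene did not differ.

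Same-numbered libraries share a header release, an antibody panel and a depth class. This makes the number a technical batch, so values with the block are given beside those without it. Alternatives were DESeq2 1.42.0, RLE size factors, no filter on low counts, other thinning depths and gates, and leaving out each library, the richest cell or adding B cells outside the table. The rule for naming other genes took the 7 other heavy-chain constant genes as shares, the 5 genes with the highest Spearman correlation to each member, and list genes past the threshold in cluster 3 or all B-lineage cells. Other list genes (Tgfbr1, Tgfbr2, Runx3, Xbp1, Pax5, Mef2b, Prdm1, Pigr) were named for their roles, after their values were seen. Some genes under this rule are not reported here. The members and lists were chosen with earlier results of these data known. Intervals and floors cover counting error only.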

Additional observations from a re-analysis of the deposited data

Results flagged for a closer look

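The SFB difference of Igha was not the same in clusters 3 and 4. The log2 difference of effects (cluster 4 minus cluster 3) was -2.31 ± 0.25 (SE) in an edgeR quasi-likelihood model with library as a block (adjusted p = 1.1e-13), from 376 and 79.5 CPM (SFB-negative) against 946 and 744 CPM (SFB-positive) in cluster 3 and 613 and 164 against 406 and 234 CPM in cluster 4. Within replicate 1 the log2 CPM differences were 1.33 and -0.60 in clusters 3 and 4, and within replicate 2 they were 3.23 and 0.51. Each library contributes to both clusters, so its free RNA enters both sums. The model leaves few degrees of freedom, so its SE and adjusted p lean on the spread of all genes together.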

How the results depend on the processing

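With the replicate block, 4 SFB differences passed that did not pass without it: Igha (1.37) and Jchain (1.41) over all B-lineage cells, and Igha outside cluster 6 (1.71) and in cluster 3 (2.20). Alternatives chosen after seeing the data passed too. With the block and without the cell richest in the gene, the 4 values were 1.90, 1.72, 1.67 and 2.29. With the block and B cells outside the table added, run over all B-lineage cells alone, Igha was 1.46 and Jchain 1.41. Jchain in cluster 3 reversed to -0.027 without its richest cell, and to -0.11 with the block as well. The block rests on 2 pairs of libraries.

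Without the block and leaving out each library in turn (the lone library of a group is assumed to vary like the others), Igha ranged from -0.039 to 2.86 over all B-lineage cells, from 0.85 to 2.67 outside cluster 6, from 1.15 to 3.21 in cluster 3 and from -1.02 to 0.85 in cluster 4. Jchain ranged from 0.64 to 2.09, from -0.25 to 1.19, from -0.99 to 0.99 and from -1.66 to 1.03 in the same sets. The Jchain difference of effects between clusters 4 and 3 ranged from -0.78 to 0.13. Without SFB-positive replicate 1, Igha over all B-lineage cells and Jchain outside cluster 6 and in cluster 3 took their negative ends. Without SFB-negative replicate 1, both genes in cluster 4 and the difference of effects took their positive ends. The cause was not tested.

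Without thinning, the group difference in the share of cells (SFB-positive minus SFB-negative, percentage points) was 39.2 for Igha and 38.9 for both genes in cluster 3. In cluster 4 it was 4.03 for Igha, 0.659 for Jchain and 0.528 for both, and at 500 UMIs it was -2.95 for Igha. The mean T-cell Jchain level of the SFB-positive libraries was 37.5 CPM without the limit on B-cell UMIs. Another 134 values kept their direction and side of the threshold, or moved by less than the spread between libraries. Depth limits the replicate 1 libraries, whose clusters 0 to 2 had medians of 1243 and 1233 UMIs per cell.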

Other observations

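B cells that passed the same mitochondrial limit but lie outside the cell table held Igha at 68.7 and 39.6 CPM in SFB-negative replicates 1 and 2 and at 2239 and 1103 CPM in SFB-positive replicates 1 and 2, from 55, 1003, 63 and 418 barcodes. The groups did not overlap, and the ratio was 32.6-fold and 27.9-fold within replicates 1 and 2. The first rests on 5 and 350 Igha UMIs. Over all barcodes outside the table Igha stood at 566 and 33.8 CPM against 744 and 648 CPM, 1.31-fold and 19.2-fold. Jchain in the same B cells was 742 and 246 CPM against 2213 and 574 CPM, which overlap.

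The plasma-like cells differed in class between libraries. Igha gave 92.4% and 48.4% of constant-region UMIs of cluster 6 in SFB-negative replicates 1 and 2 and 59.1% and 30.2% in SFB-positive replicates 1 and 2. Ighg2b gave 0% and 7.14% against 28.0% and 51.8%. In SFB-negative replicate 1, 2 Igha-dominant cells held 5427 and 2906 of the 8338 Igha UMIs of the cluster. The cluster had 6 and 30 cells in SFB-negative replicates 1 and 2 and 24 and 68 in SFB-positive replicates 1 and 2. Igha-dominant cells made up 33.3%, 30.0%, 45.8% and 27.9% of those with at least 3 constant UMIs, in the same order. The CD138 (plasma-cell surface) tag was found on 0 of 6 and 3 of 24 cluster 6 cells of the replicate 1 libraries.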
